A study of Arabidopsis thaliana with 4 samples.

Results

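In mRNA-seq libraries of Arabidopsis thaliana seedlings, 112 abundant transcripts were slightly higher in the ndx1-4 mutant than in the Col-0 wild type. They were chosen from the 1984 genes of the deposited gene table by 3 limits on their FPKM (fragments per length of transcript and per total of mapped fragments, a level that can be compared between genes). The mean over the 4 libraries was at least 200 FPKM, and the ratio of the mean ndx1-4 FPKM to the mean Col-0 FPKM was above 1 and under 2. Because the genotype difference itself chose these genes, their ratios are a description and carry no test. The deposited table holds genes that the authors called different, so abundant genes outside it were not analysed here.

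Both genotypes were sampled as seedlings at 10 days, with 2 libraries of each. Col-0 is the wild-type accession, and ndx1-4 is a single T-DNA insertion line (WiscDsLox344A04) in NODULIN HOMEOBOX (NDX), so the comparison rests on 1 mutant allele. No agent was applied to either genotype per the labels. The libraries were unstranded, the reads were single-end, and the files used here hold no counts, so the depth behind each value is unknown. The number of seedlings behind each library is not given in the sources used here. The paper's figure captions on seedlings and flowers describe the replicates as independent and biological, but part of the spread between libraries may still be technical. NDX (AT4G03090) was at 5.08 and 4.96 FPKM in Col-0 and at 0.98 and 1.00 FPKM in ndx1-4, which fits the genotype labels. These are whole seedlings, so a change in the number of cells of a type and a change in RNA per cell cannot be told apart.

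NDX is a plant-specific homeobox protein that binds DNA and is best known as a repressor acting at the FLC locus. Abundant seedling transcripts encode mainly the photosynthetic apparatus, the protein-making machinery and proteins of defence, redox control and the cell wall. Cytosolic ribosomes are built from a large and a small subunit, and in Arabidopsis most of their proteins are encoded by small families of nuclear genes. Promoters of plant ribosomal protein genes are known for short elements called site II, which TCP transcription factors can bind, and the telo box, which resembles the plant telomere repeat.

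The largest functional group was that of cytosolic ribosomal proteins, with 29 genes, or 25.9% of the 112. These 29 had a median ratio of 1.12, with a range from 1.08 to 1.34. All 34 cytosolic ribosomal protein genes of the gene table were higher in ndx1-4, against 43.5% of all listed genes. Of 356 annotated genes with a ribosomal protein product, organellar ones included, 316 were not in the table. The 4 promoters below are shown because each holds both site II and the telo box in the 250 bases before the annotated gene start. They were read 5′ to 3′ on the gene's strand from the TAIR10.1 genome, whose gene positions matched those of the files for all 1984 genes. Capitals mark site II (TGGGCC or TGGGCT) and the telo box (AAACCCTA), each on either strand, and neighbouring motifs may share a base.
AT5G15200 (ribosomal protein S4), chr5:4936430-4936679, minus strand: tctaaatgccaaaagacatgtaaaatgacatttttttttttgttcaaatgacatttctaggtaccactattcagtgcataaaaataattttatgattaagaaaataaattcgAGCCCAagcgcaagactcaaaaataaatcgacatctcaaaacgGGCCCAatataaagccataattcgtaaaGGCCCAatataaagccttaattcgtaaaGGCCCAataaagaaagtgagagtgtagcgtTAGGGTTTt
AT3G11940 (RPS5A, ribosomal protein 5A), chr3:3779546-3779795, minus strand: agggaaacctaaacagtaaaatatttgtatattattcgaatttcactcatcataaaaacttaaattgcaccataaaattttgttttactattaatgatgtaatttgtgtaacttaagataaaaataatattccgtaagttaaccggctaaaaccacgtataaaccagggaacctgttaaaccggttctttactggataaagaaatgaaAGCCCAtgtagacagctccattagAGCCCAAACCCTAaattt
AT5G16130 (ribosomal protein S7e family), chr5:5268171-5268420, plus strand: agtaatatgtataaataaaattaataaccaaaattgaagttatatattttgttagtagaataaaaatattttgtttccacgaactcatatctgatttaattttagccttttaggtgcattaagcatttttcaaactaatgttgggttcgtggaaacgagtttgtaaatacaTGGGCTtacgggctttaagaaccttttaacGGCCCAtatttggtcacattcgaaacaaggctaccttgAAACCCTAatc
AT1G58983 (ribosomal protein S5 family), chr1:21807497-21807746, minus strand: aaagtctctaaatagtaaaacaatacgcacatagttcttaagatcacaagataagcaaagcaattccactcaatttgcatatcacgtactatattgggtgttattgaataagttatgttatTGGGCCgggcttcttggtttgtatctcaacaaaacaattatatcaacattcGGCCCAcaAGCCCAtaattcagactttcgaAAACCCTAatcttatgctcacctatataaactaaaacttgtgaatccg

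Across the 112 transcripts the ratio ran from 1.04 to 1.63 with a median of 1.13. Of these, 87 genes (77.7%) had a ratio of at most 1.2, and 42 lay between 1.1 and 1.15. In each of the 112 genes the lower ndx1-4 library was above the higher Col-0 library. The same held for 863 of all 1984 listed genes (43.5%), and 864 listed genes had a higher ndx1-4 mean. Lack of overlap between genotypes was thus near universal among higher listed genes and does not set the 112 apart. On log2(FPKM + 1), limma with Benjamini-Hochberg adjustment over all listed genes called 98.9% of them at 0.01 in either direction. It called 43% of them higher (853 genes, where 864 had a higher ndx1-4 mean). Among the 112, 107 were called higher, and MT1A, LHCB5, PSBW, SHM1 and GGT1 were not. Without limma's variance trend 47 were called, and 23, 19, 33 and 25 were called without Col-0 replicate 1, Col-0 replicate 2, ndx1-4 replicate 1 and ndx1-4 replicate 2. Nothing is read from these counts, since the genes were chosen on this contrast. The lowest ndx1-4 library was at least 1.03 times the highest Col-0 library, and it was more than 1.05 times as high in 103 genes. The median difference between the replicate libraries of a gene was 0.03 log2 units in Col-0 and 0.04 in ndx1-4, against a median genotype difference of 0.17 log2 units.

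Ratios were smaller where transcripts were more abundant. The 39 genes with a mean from 200 to 300 FPKM had a median ratio of 1.15, the 46 genes from 300 to 600 FPKM had 1.12, and the 27 genes of at least 600 FPKM had 1.102. Listed genes that were higher in ndx1-4 but under 200 FPKM had a median ratio of 1.56 over the 721 with a ratio. Only differences large enough for the authors' call are in the table, so the ratios at low FPKM are not those of all low transcripts. At the same abundance, 114 listed genes were lower in ndx1-4, with a median ratio of 0.866.

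**Figure D1:**
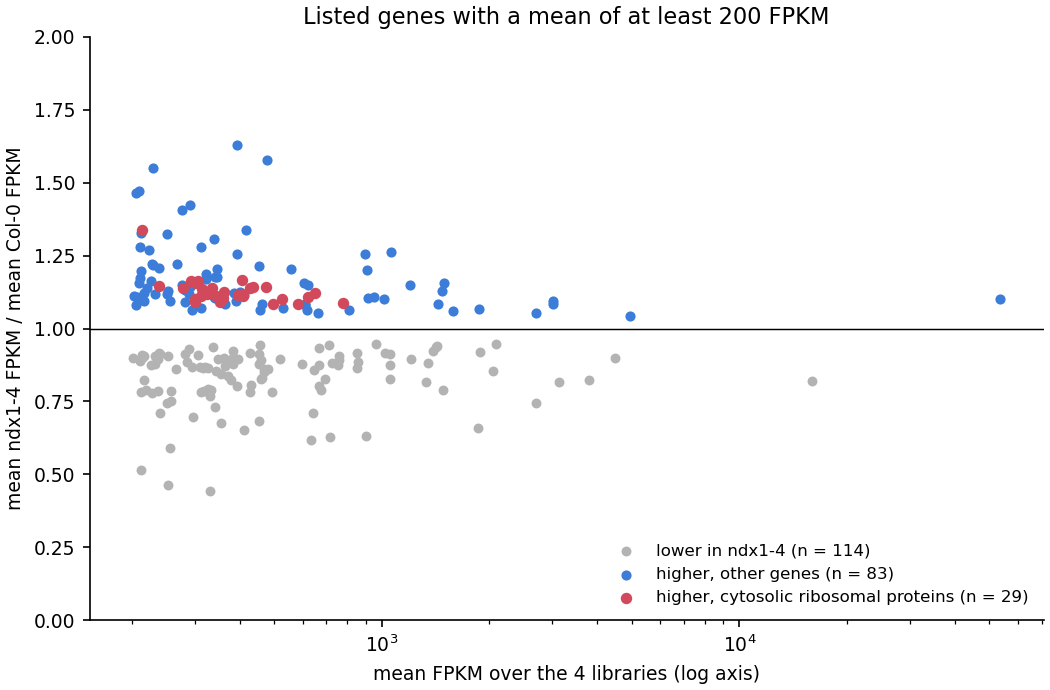
Ratio of mean ndx1-4 FPKM to mean Col-0 FPKM against the mean FPKM over the 4 libraries, on a log axis, for the abundant listed genes (200 FPKM or more). Each point is a gene, the line marks a ratio of 1, and AT1G64795, with a ratio of 217, is outside the axis. The 29 cytosolic ribosomal protein genes sit between 1.08 and 1.34, all above the line.

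Summed over the 112 genes, the Col-0 libraries held 109547 and 110115 FPKM and the ndx1-4 libraries 121493 and 123711 FPKM, a ratio of 1.12. One gene, the metallothionein MT1A, made up 46.5% of that sum in Col-0. Without MT1A the Col-0 sums were 58730 and 58764 FPKM, the ndx1-4 sums were 66047 and 66495 FPKM, and the ratio was 1.13. The 114 abundant genes that were lower had a ratio of summed FPKM of 0.835. FPKM is relative to the total of each library, and the 112 genes held 38.8% of the FPKM of all listed genes in Col-0 and 44.5% in ndx1-4. Nothing is read from this rise, since the genes were chosen for a higher ndx1-4 mean. The listed genes are only part of each library, and their mean sum was 283196 FPKM in Col-0 and 275434 FPKM in ndx1-4.

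Among the 29 cytosolic ribosomal protein genes, 17 encode proteins of the large subunit and 12 of the small subunit, by product name. Their summed FPKM was 10868 and 10866 for the Col-0 libraries and 12040 and 12355 for the ndx1-4 libraries. The ndx1-4 sums lay above the Col-0 sums by more than either pair differed, but each gene was chosen for a higher ndx1-4 mean, so nothing is read from this. Ratios ran from 1.08 to 1.34, and 28 of the 29 were at most 1.17. The interquartile range of the ratio was 0.0366 for these genes and 0.117 for the other 83, which pool many functional groups. Ratios ran from 1.05 to 1.11 in the Rubisco, Calvin cycle and photorespiration group and from 1.18 to 1.21 in aquaporins and transporters. They ran from 1.08 to 1.58 in redox and metal binding and from 1.15 to 1.63 in cell wall and glycine-rich proteins. A narrow range was thus not particular to the ribosomal protein genes.

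AT5G18380, a ribosomal protein S5 domain gene and the most abundant of the group, was at 758 and 728 FPKM in Col-0 and at 803 and 816 FPKM in ndx1-4 (ratio 1.09). AT5G20290, of the ribosomal protein S8e family, was at 599.7 and 625 FPKM in Col-0 and at 679 and 694 FPKM in ndx1-4 (ratio 1.12). AT5G15200, whose promoter is printed above, was at 589 and 586 FPKM in Col-0 and at 633 and 671 FPKM in ndx1-4 (ratio 1.11). The genotypes were apart in each of these small-subunit genes, as in every gene of the set. The ndx1-4 libraries differed by more in AT5G15200 than in the others. The large-subunit gene emb2171 (AT3G04400, ribosomal protein L14p/L23e family) was at 564 and 556 FPKM in Col-0 and at 597 and 618 FPKM in ndx1-4 (ratio 1.08). RPS5A, a small-subunit gene known for its strong promoter in dividing cells, was at 471 and 479.9 FPKM in Col-0 and at 517 and 514 FPKM in ndx1-4 (ratio 1.08). Of the 29, RPS5A had the lowest ratio.

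The gene of highest ratio in the group was AT3G45030, of the S10p/S20e family, at 191 and 174 FPKM in Col-0 and at 243 and 245 FPKM in ndx1-4 (ratio 1.34). In proportion its Col-0 libraries were further apart than those of the other genes just given. Both were under both ndx1-4 libraries, as in every gene of the set. AT1G58983 was at 273 and 269 FPKM in Col-0 and at 309.6 and 320.1 FPKM in ndx1-4 (ratio 1.16), but 100% of its 50-base stretches also occur in AT1G58684, so its value cannot be assigned to 1 gene with reads of 50 bases. AT5G16130 was at 282 and 287 FPKM in Col-0 and at 311 and 317 FPKM in ndx1-4 (ratio 1.103), and its transcript shared no stretch of that length with another gene. In all, 19 of the 29 shared none.

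**Figure D2:**
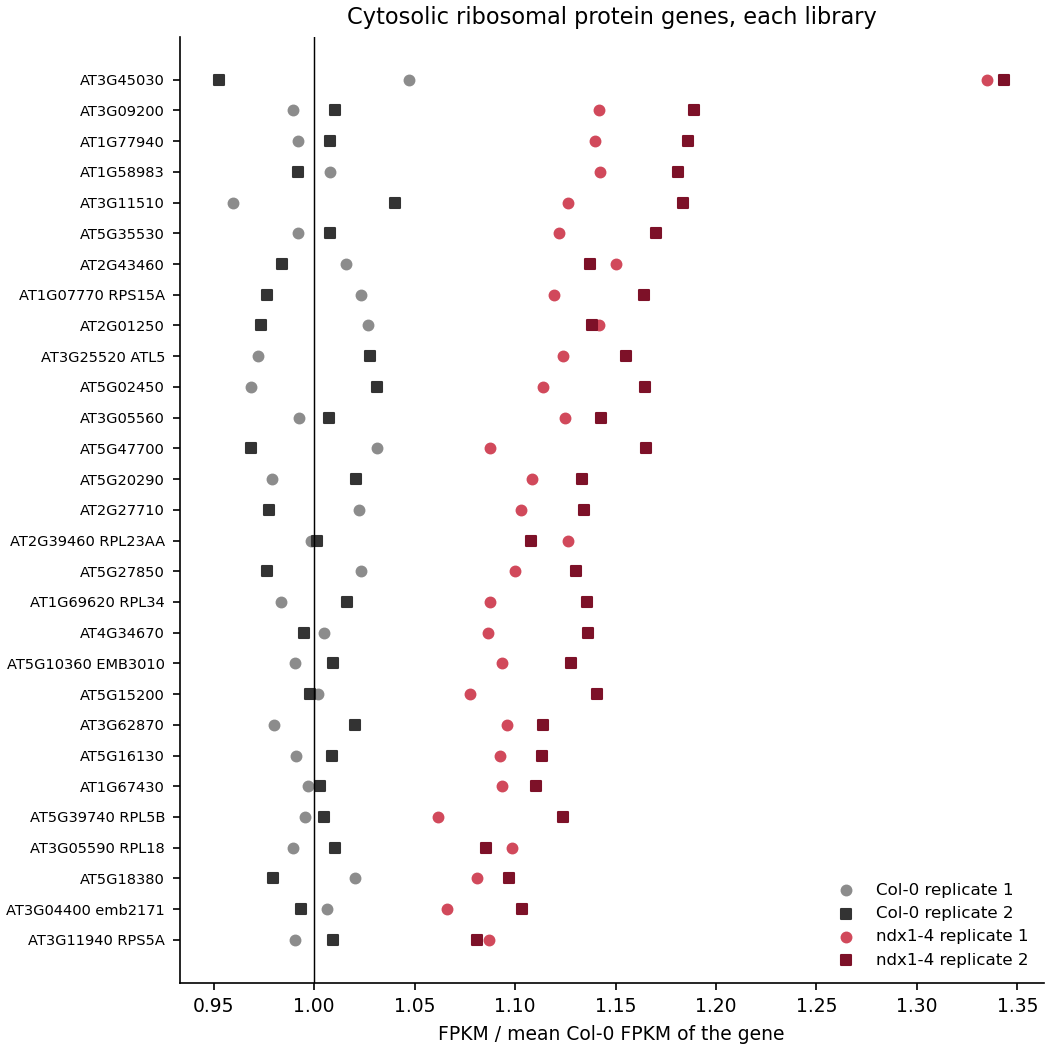
FPKM of each library divided by the gene's mean Col-0 FPKM, for the 29 cytosolic ribosomal protein genes, ordered by ratio. Grey symbols are the 2 Col-0 libraries and red symbols the 2 ndx1-4 libraries, and in all 29 genes both red symbols lie to the right of both grey symbols. The genes were chosen for a ratio above 1. Of all 1984 listed genes, 43.5% were higher in ndx1-4 without overlap, which is 863 of the 864 with a higher ndx1-4 mean.

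Of 356 annotated protein-coding genes with a ribosomal protein product, organellar ones included, 40 were in the gene table. 39 of those were higher in ndx1-4 and 1 was lower, and 32 met the limits on abundance and ratio. These counts go by product name, so they take in the elongation factor gene eEF-1Bb1 and leave out the plastid ribosomal protein gene PSRP2. The other 316 of the 356 were not in the table, so their values were not analysed here. The 5 listed cytosolic ribosomal protein genes outside the limits were also higher in ndx1-4. AT3G16080, a zinc-binding ribosomal protein gene just under the abundance limit, was at 179 and 173 FPKM in Col-0 and at 211 and 219 FPKM in ndx1-4. The acidic ribosomal protein genes AT3G28500 and AT5G40040 were under 1 FPKM in both Col-0 libraries and between 10.2 and 16.0 FPKM in ndx1-4, a far lower level than that of the 29.

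The 3 organellar ribosomal protein genes, which serve chloroplast translation, had ratios from 1.097 to 1.122. RPL27 was at 340.1 and 344 FPKM in Col-0 and at 369.8 and 380.1 FPKM in ndx1-4 (ratio 1.097). GHS1, which encodes a ribosomal protein S21, was at 234 and 238 FPKM in Col-0 and at 261 and 268 FPKM in ndx1-4 (ratio 1.12). PSRP2, a plastid-specific ribosomal protein gene, was at 199 and 207 FPKM in Col-0 and at 227 and 229.8 FPKM in ndx1-4 (ratio 1.12). One more abundant organellar ribosomal protein gene, AT2G33800, was lower in ndx1-4. The translation factor genes FBR12, which encodes the initiation factor eIF5A, and eEF-1Bb1, an elongation factor subunit, had ratios of 1.08 and 1.17. FBR12 was at 576 and 595 FPKM in Col-0 and at 631 and 636 FPKM in ndx1-4. The Col-0 libraries of eEF-1Bb1 were at 311 and 282 FPKM and its ndx1-4 libraries at 346 and 347 FPKM, so its Col-0 libraries stood further apart than its ndx1-4 libraries. Of 11 listed translation factor genes, 7 were higher and 4 lower, against 43.5% higher among all listed genes.

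Site II was found in the 250 bases upstream of 23 of the 29 cytosolic ribosomal protein genes (79.3%). The share was 15.7% among the other 83 abundant higher genes (13 of 83), 16.7% among the 114 abundant lower genes, and 19.2% among 27444 annotated protein-coding genes. The telo box was found in 5 of the 29 (17.2%), in 0 of the 83 and in 4.49% of protein-coding genes. In RPS5A the telo box and the nearest site II share a base, and its nearest site II starts 18 bases before the annotated gene start. The TATA box (TATAAA) was found in 75.9% of the 29, in 50.6% of the 83, in 36.8% of the abundant lower genes and in 47.3% of protein-coding genes. Shares of the G-box (CACGTG), the I-box (GATAAG) and the evening element (AAAATATCT) in the 29 were 3.45%, 10.3% and 0%, against 6.49%, 12.3% and 2.36% of protein-coding genes. A match is a run of letters in this window and not a binding site.

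**Figure D3:**
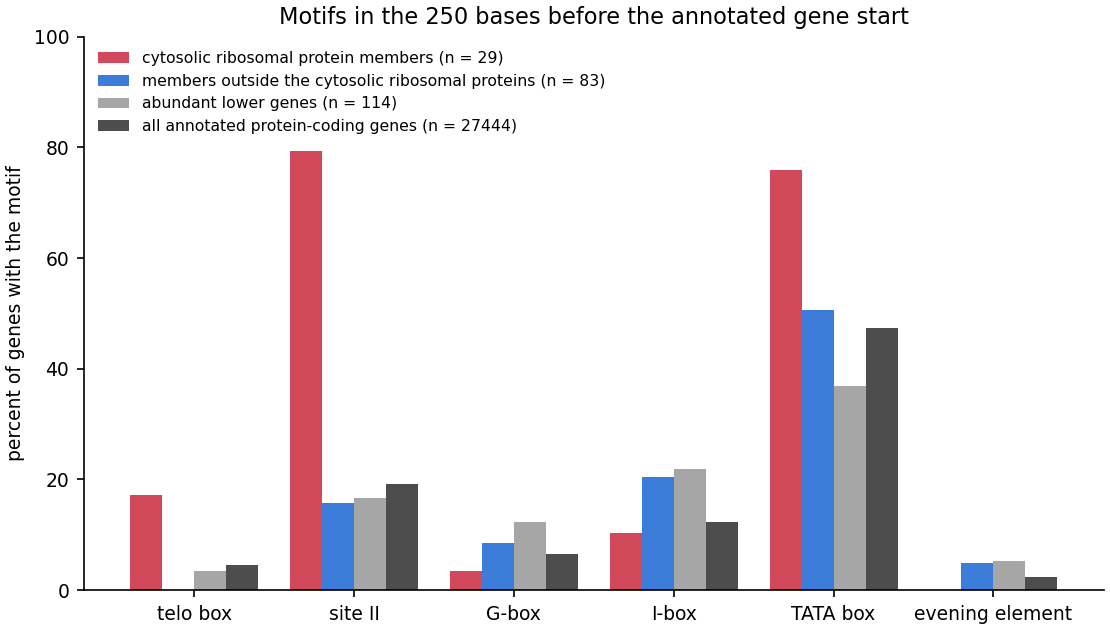
Percent of genes with each motif, on either strand, in the 250 bases before the annotated gene start. Bars stand for the 29 cytosolic ribosomal protein genes, the other 83 abundant higher genes, the 114 abundant lower genes and all 27444 annotated protein-coding genes, and the tallest site II bar is that of the ribosomal protein genes at 79.3%.

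Transcripts of the light reactions were among the most abundant and had small ratios. LHCB5, an antenna protein of photosystem II, was at 4823 and 4859 FPKM in Col-0 and at 5019 and 5077 FPKM in ndx1-4 (ratio 1.04), the lowest ratio of the 112. PSAK, a photosystem I subunit, was at 2865 and 2900.2 FPKM in Col-0 and at 3088 and 3157 FPKM in ndx1-4 (ratio 1.08). PSBW, a small photosystem II protein, was at 2667 and 2589.9 FPKM in Col-0 and at 2755 and 2779 FPKM in ndx1-4 (ratio 1.05). The gap between genotypes was about as wide as that between replicates for PSBW, and wider for LHCB5 and PSAK. LHCB2.3, another antenna protein, was at 1352 and 1396 FPKM in Col-0 and at 1485 and 1496 FPKM in ndx1-4 (ratio 1.08). Of its 50-base stretches, 38.6% also lie in AT3G27700 on the opposite strand. The group had 6 genes here with a median ratio of 1.08, while 10 of its 18 listed genes were lower in ndx1-4.

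Genes of carbon fixation and photorespiration were split in the same way, with 8 of 20 listed genes higher and 12 lower. RCA, which encodes the activase that keeps Rubisco working, was at 2874 and 2866 FPKM in Col-0 and at 3150.5 and 3129 FPKM in ndx1-4 (ratio 1.09). GGT1, a peroxisomal aminotransferase of photorespiration, was at 1533 and 1529 FPKM in Col-0 and at 1649 and 1598 FPKM in ndx1-4 (ratio 1.06). CP12-1, which encodes a regulator of Calvin cycle enzymes, was at 924 and 881 FPKM in Col-0 and at 983 and 1017 FPKM in ndx1-4 (ratio 1.11). Genotypes did not overlap in these genes, as in every gene of the set, and the replicates of RCA were the closest in proportion. SHM1, the mitochondrial serine transhydroxymethyltransferase of photorespiration, was at 649 and 642 FPKM in Col-0 and at 684 and 678 FPKM in ndx1-4 (ratio 1.05). GAPB, a chloroplast glyceraldehyde-3-phosphate dehydrogenase subunit, was at 597 and 603 FPKM in Col-0 and at 632 and 643 FPKM in ndx1-4 (ratio 1.06). Both had ratios among the 5 lowest, and the Rubisco small subunit gene RBCS3B went the other way, from 4699 and 4738 FPKM in Col-0 to 4108 and 4372 FPKM in ndx1-4.

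The metallothioneins MT1A and MT1C, which encode small cysteine-rich proteins that bind metals, had the highest mean FPKM (MT1A) and the second highest ratio (MT1C) of the 112. MT1A (AT1G07600, chr1:2338904-2339321, minus strand) was at 50817 and 51350.4 FPKM in Col-0 and at 55446 and 57216 FPKM in ndx1-4 (ratio 1.103). MT1C (AT1G07610, chr1:2341447-2342148, plus strand) was at 376 and 364 FPKM in Col-0 and at 582 and 586 FPKM in ndx1-4 (ratio 1.58). The log2 difference on log2(FPKM + 1) with its limma standard error was 0.14 ± 0.05 for MT1A and 0.66 ± 0.03 for MT1C, over 2 libraries a genotype. The coding sequences are shown because these neighbouring genes are 94.9% identical over 138 bases and yet differed in ratio. Capitals mark the 7 bases that differ, 5′ to 3′ on each gene's strand.
MT1A: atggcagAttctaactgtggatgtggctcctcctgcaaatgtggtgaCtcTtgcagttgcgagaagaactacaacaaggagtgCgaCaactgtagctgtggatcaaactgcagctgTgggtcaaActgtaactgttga
MT1C: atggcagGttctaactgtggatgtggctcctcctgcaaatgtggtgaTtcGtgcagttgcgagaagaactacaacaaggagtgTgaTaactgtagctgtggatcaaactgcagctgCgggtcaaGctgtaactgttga

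The annotated MT1A transcript of the reference was 138 bases, the shortest of the 112, and FPKM divides by length, so its level is uncertain. All of its 89 stretches of 50 bases (100%) also lie in the overlapping transcript of AT1G07590 on the same strand, so no read of MT1A can be assigned to it by sequence alone. Of the stretches of AT1G07590, 5.81% are shared with another gene. AT1G07590, a tetratricopeptide repeat gene, also met the limits, at 326 and 317 FPKM in Col-0 and at 352 and 362 FPKM in ndx1-4 (ratio 1.11). MT1C shared no stretch of 50 bases with another gene.

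Other redox genes had ratios from 1.08 to 1.55. GPX1, a chloroplast glutathione peroxidase, was at 555 and 564 FPKM in Col-0 and at 656 and 639 FPKM in ndx1-4 (ratio 1.16). GSTU19, a glutathione S-transferase of detoxification, was at 351 and 349 FPKM in Col-0 and at 386 and 371 FPKM in ndx1-4 (ratio 1.08). The peroxidase gene AT2G37130 was at 179 and 181 FPKM in Col-0 and at 273 and 285 FPKM in ndx1-4 (ratio 1.55, log2 difference 0.63 ± 0.03 by limma). Of 56 listed redox and metal-binding genes, 31 were higher and 25 lower, so the direction was not shared across the group.

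The highest ratio of the 112 belonged to a glycine-rich protein gene, AT2G05540 (chr2:2033154-2034283, plus strand). It was at 302 and 296 FPKM in Col-0 and at 485 and 491 FPKM in ndx1-4 (ratio 1.63, log2 difference 0.70 ± 0.02 by limma). GRP3S, another glycine-rich protein gene of chromosome 2, was at 1397 and 1375 FPKM in Col-0 and at 1644 and 1562 FPKM in ndx1-4 (ratio 1.16). The ndx1-4 libraries were closely paired in AT2G05540 and further apart in GRP3S, and in both genes they lay above Col-0, as in every gene of the set. DGR2, which encodes a cell wall protein of the DUF642 family, was at 514 and 498 FPKM in Col-0 and at 622 and 598 FPKM in ndx1-4 (ratio 1.21). EXPA1, an expansin that loosens walls, was at 257 and 256 FPKM in Col-0 and at 299.7 and 290.1 FPKM in ndx1-4 (ratio 1.15). The arabinogalactan protein genes AGP9 and AGP31 had ratios of 1.22 and 1.20. Of 72 listed cell wall and glycine-rich genes, 30 were higher and 42 lower.

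DGR2 is overlapped on the opposite strand by AT5G03985, a noncoding RNA gene and the only one of the 112 that is not protein-coding. AT5G03985 was at 161 and 171 FPKM in Col-0 and at 225 and 262 FPKM in ndx1-4 (ratio 1.47, log2 difference 0.55 ± 0.07 by limma). It had the widest spread between ndx1-4 libraries of the genes just given, and 50.6% of its 50-base stretches lie in DGR2, as do 10.5% of those of DGR2 in AT5G03985. In unstranded libraries, reads from the shared stretch cannot be assigned to either gene.

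Defence and latex-like protein genes had the highest group median, 1.25 over 5 genes. MLP34, a major latex protein-like gene, was at 794 and 795 FPKM in Col-0 and at 985 and 1007 FPKM in ndx1-4 (ratio 1.25). MLP328 was at 415 and 406 FPKM in Col-0 and at 494 and 503 FPKM in ndx1-4 (ratio 1.21). MLP329, its near neighbour on chromosome 2, was at 220.1 and 212 FPKM in Col-0 and at 276 and 296 FPKM in ndx1-4 (ratio 1.32). Libraries of each genotype were close together in these latex-like genes, and the genotypes did not overlap, as in every gene of the set. AT3G05730, a defensin-like gene, was at 241 and 238 FPKM in Col-0 and at 333 and 348 FPKM in ndx1-4 (ratio 1.42). AT3G05727, a small secreted protein gene near it, was at 337 and 362 FPKM in Col-0 and at 438 and 438 FPKM in ndx1-4 (ratio 1.25). Among all 24 listed genes of the group, 13 were higher and 11 lower.

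Proteins of the myrosinase system and of the endoplasmic reticulum bodies, which act when tissue is wounded, moved less. PYK10, a beta-glucosidase of these bodies, was at 1781 and 1823 FPKM in Col-0 and at 1913 and 1937 FPKM in ndx1-4 (ratio 1.07). NSP1, which directs glucosinolate breakdown towards nitriles, was at 315 and 322 FPKM in Col-0 and at 368 and 382 FPKM in ndx1-4 (ratio 1.18). The genotypes were apart in both, as in every gene of the set, and by more for NSP1 in proportion. The neighbouring lectin genes JAL33 and JAL34 were also here. JAL33 was at 335 and 336 FPKM in Col-0 and at 373 and 374 FPKM in ndx1-4 (ratio 1.11). JAL34 was at 283 and 286 FPKM in Col-0 and at 301 and 304 FPKM in ndx1-4 (ratio 1.06). The myrosinase gene TGG2 had a ratio of 1.12, whereas TGG1, a second myrosinase gene, was at 992 and 989 FPKM in Col-0 and at 934 and 944 FPKM in ndx1-4 (ratio 0.948).

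Water channels were represented by 3 genes with ratios from 1.18 to 1.20. Another 2 abundant aquaporin genes, PIP1B (AT2G45960) and PIP3 (AT4G35100), were lower in ndx1-4, with means of 1209 and 1051 FPKM and ratios of 0.897 and 0.875. PIP2A, an aquaporin of the plasma membrane, was at 825 and 831 FPKM in Col-0 and at 981 and 1006 FPKM in ndx1-4 (ratio 1.20). PIP2B, a close relative, was at 320.2 and 305 FPKM in Col-0 and at 365 and 371 FPKM in ndx1-4 (ratio 1.18). GAMMA-TIP, an aquaporin of the vacuole membrane, was at 317 and 310.2 FPKM in Col-0 and at 364 and 391 FPKM in ndx1-4 (ratio 1.20). In PIP2A, PIP2B and GAMMA-TIP both ndx1-4 libraries lay above both Col-0 libraries, as in every gene of the set. The amino acid transporter gene AT3G30390 was at 214 and 217 FPKM in Col-0 and at 262 and 259 FPKM in ndx1-4 (ratio 1.21). Of 88 listed transporter and channel genes, 32 were higher (36.4%), against 43.5% of all listed genes.

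Nitrogen assimilation gave both small and large ratios. NIA2, the main nitrate reductase gene, was at 361 and 352 FPKM in Col-0 and at 485 and 468 FPKM in ndx1-4 (ratio 1.34). GS2, the chloroplast glutamine synthetase, was at 869 and 869.6 FPKM in Col-0 and at 966 and 955 FPKM in ndx1-4 (ratio 1.11). GDH2, a glutamate dehydrogenase, was at 168 and 169.6 FPKM in Col-0 and at 243 and 254 FPKM in ndx1-4 (ratio 1.47, log2 difference 0.56 ± 0.03 by limma). The replicates of each differed by less than the genotypes did, and GDH2 was among the 5 highest ratios. SAM1, which makes the methyl donor S-adenosylmethionine, was at 271 and 272 FPKM in Col-0 and at 308 and 313 FPKM in ndx1-4 (ratio 1.14). Of 29 listed genes in amino acid and nitrogen metabolism, 12 were higher and 17 lower.

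**Figure D4:**
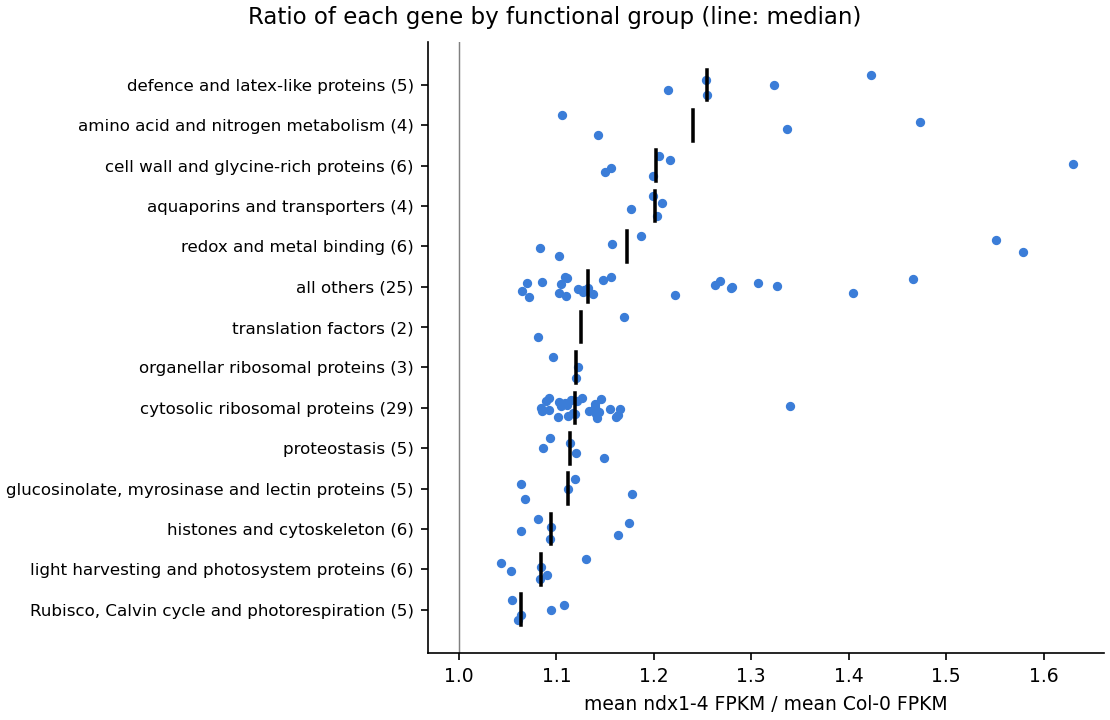
Ratio of mean ndx1-4 FPKM to mean Col-0 FPKM for each of the abundant higher genes in functional groups of at least 2 genes, with the number of genes in brackets. Points are genes, the black lines are group medians and the grey line marks a ratio of 1. The cytosolic ribosomal protein genes crowd around 1.12, with 1 gene at 1.34, and the defence group has the highest median at 1.25.

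Structural and housekeeping transcripts were also in the set. ACT2, an actin gene, was at 439 and 444 FPKM in Col-0 and at 466 and 474 FPKM in ndx1-4 (ratio 1.06). ACT8, its relative, was at 208 and 210.1 FPKM in Col-0 and at 239.7 and 246 FPKM in ndx1-4 (ratio 1.16). The difference was larger in proportion for the less abundant actin gene. TUA6, an alpha-tubulin gene, was at 245 and 242 FPKM in Col-0 and at 264 and 269 FPKM in ndx1-4 (ratio 1.09). TUA4, another alpha-tubulin gene, was at 205 and 209 FPKM in Col-0 and at 227 and 226 FPKM in ndx1-4 (ratio 1.09). TUA6 and TUA4 share part of their sequence with each other, 10.06% of the 50-base stretches of TUA6 and 9.83% of those of TUA4, so their values are not fully separate. Of 19 listed histone and cytoskeleton genes, 16 were higher (84.2%) and 3 lower, against 43.5% higher among all listed genes. The 6 genes of the group in the set all encode actin or tubulin, so no histone gene is among them. AT4G40040, the 1 other abundant gene of the group, was lower in ndx1-4 (mean 666 FPKM, ratio 0.934).

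Proteostasis genes had ratios from 1.09 to 1.15. J8, a chloroplast DnaJ chaperone, was at 1113 and 1115 FPKM in Col-0 and at 1265 and 1294 FPKM in ndx1-4 (ratio 1.15). HSC70-1, the constitutive cytosolic chaperone, was at 575 and 593 FPKM in Col-0 and at 627 and 641 FPKM in ndx1-4 (ratio 1.09). UBQ3, a polyubiquitin gene, was at 389 and 389.8 FPKM in Col-0 and at 436 and 431 FPKM in ndx1-4 (ratio 1.11). The genotypes stood apart in each, as in every gene of the set, and by least in HSC70-1. CPN20, a chloroplast co-chaperonin, was at 370.3 and 376 FPKM in Col-0 and at 398 and 419 FPKM in ndx1-4 (ratio 1.09). Among 70 listed proteostasis genes, 37 were higher and 33 lower.

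**Figure D5:**
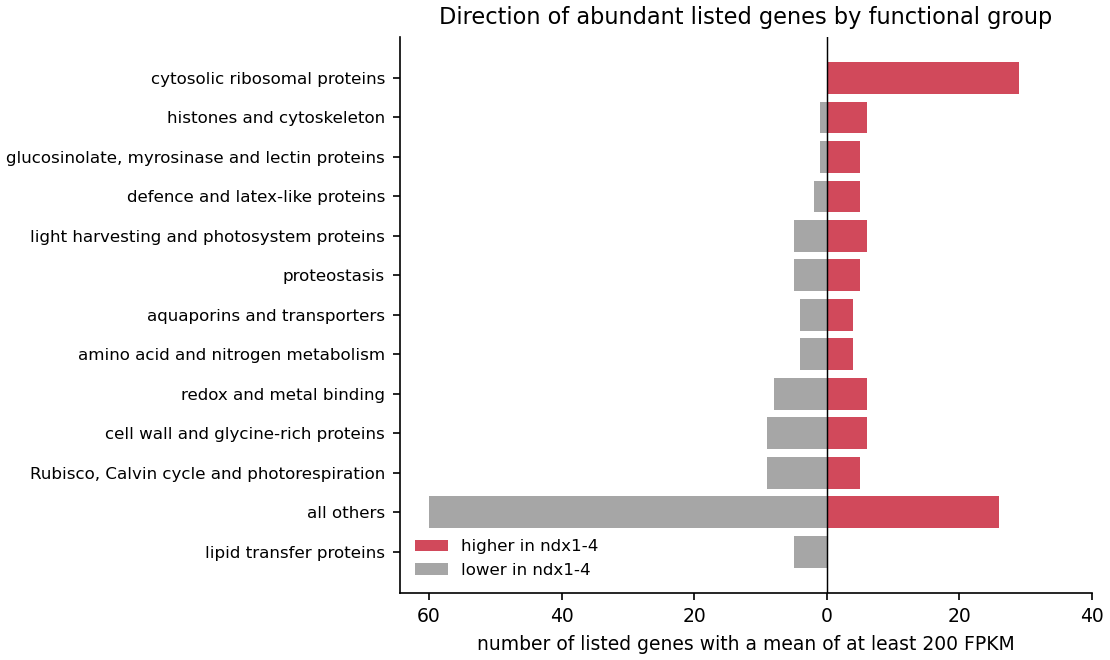
Number of abundant listed genes (200 FPKM or more) that were higher (red, to the right) or lower (grey, to the left) in ndx1-4, for functional groups with at least 5 such genes. All 29 cytosolic ribosomal protein genes point right and all 5 lipid transfer protein genes point left, and the group of all others holds 26 higher and 60 lower genes, AT1G64795 included among the higher.

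Genes outside these groups numbered 25, with means from 202 to 1470 FPKM and ratios from 1.06 to 1.47. GASA6, a gibberellin-regulated peptide gene, was at 1366 and 1397 FPKM in Col-0 and at 1595 and 1523 FPKM in ndx1-4 (ratio 1.13). SAG21, a senescence-associated gene of the late embryogenesis abundant family, was at 945 and 925 FPKM in Col-0 and at 1222 and 1140.4 FPKM in ndx1-4 (ratio 1.26). AT1G56220, a dormancy- and auxin-associated gene, was at 962 and 962 FPKM in Col-0 and at 1045 and 1076 FPKM in ndx1-4 (ratio 1.102). SAG21 had the largest gap between genotypes of these and also the most distant ndx1-4 libraries. PCK1, the phosphoenolpyruvate carboxykinase that makes sugar from seed oil, had a ratio of 1.27, and RCI2A, a small membrane protein gene induced by cold and salt, 1.28. One RNA-binding protein gene, CP29, which acts on chloroplast transcripts, was at 234 and 247 FPKM in Col-0 and at 288 and 298 FPKM in ndx1-4 (ratio 1.22).

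Just inside the abundance limit were AT5G11500, AT5G03985 and TUB2, with means of 202, 205 and 205 FPKM, and just outside were ADC2, DJ1A and AT5G65207, with 197, 197 and 196 FPKM. At the ratio of 1, LHCB5, PSBW and SHM1 (1.04, 1.05 and 1.05) faced TGG1, CA2 and HPR (0.948, 0.946 and 0.945). Near the upper limit, AT2G05540, MT1C and AT2G37130 had ratios of 1.63, 1.58 and 1.55, and the next abundant gene was AT1G64795 at 21.2 and 0 FPKM in Col-0 and at 2342 and 2261 FPKM in ndx1-4.

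The 112 genes lay on all 5 nuclear chromosomes, with 31, 17, 27, 12 and 25 genes from chromosome 1 to 5, and 111 were protein-coding. Their median spliced length was 1230 bases, against 1404 bases for the 114 abundant lower genes and 1733 bases for all listed genes. The GC content had a median of 41.4%, close to the 41.6% of all listed genes. In the reference, 69 of the 112 shared no stretch of 50 bases with another gene and 20 shared more than 10% of them. These 20 include NSP1 (28.3%), TUB2 (22.3%), PIP2B (19.6%), JAL34 (19.3%), TUA4 (18.4%), GASA6 (18.2%), J8 (18.1%), SAG21 (13.5%) and AT5G18380 (13.1%). On the same strand, 9 of the 112 shared more than 10%, and JAL34, GASA6 and J8 shared only with genes on the opposite strand. In unstranded libraries, reads from stretches shared on either strand cannot be assigned to 1 gene. Several of the 112 were neighbours, such as MLP328 and MLP329, JAL33 and JAL34, and AT1G07590, MT1A and MT1C. AGP9 was the only one to overlap a listed transposable element, an ATENSPM1A copy with 577 shared bases.

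Other transcripts differed between the same libraries, and their part in the small ratios was not tested. All 9 seed storage and oil body markers were listed and lower in ndx1-4, with summed values of 1076 and 1116 FPKM across the Col-0 libraries against 69.2 and 59.4 FPKM across those of ndx1-4. A listed 18S ribosomal RNA feature was at 500.4 and 578 FPKM in Col-0 and at 369.5 and 369.2 FPKM in ndx1-4. With each library scaled by median ratios over the listed genes, the median log2 ratio of all listed genes shifted by 0.19 and that of the 112 genes became 0.36. This scaling and equal sums both divided the Col-0 libraries by more than 1 and the ndx1-4 libraries by less than 1. Ratios could thus only rise, so all 112 genes and all 34 listed cytosolic ribosomal protein genes had to stay higher in ndx1-4. Of the 114 abundant lower genes, 65 stayed lower under median-ratio scaling.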

How the data were processed

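mRNA-seq libraries of seedlings, 2 per genotype, were read from the deposited gene table. The authors quantified 50-base single-end reads against the Araport11 transcriptome in Salmon, corrected for GC bias, and kept genes called by DESeq2 at an adjusted p of 0.01. The deposited values are FPKM per library, rounded to 0.01, and the FPKM of transposable elements in the other deposited table were scaled separately. The authors' log2 fold changes and p-values in both tables were not used. Such pre-selection means that a share of calls in the table says little, and shared sequence can move reads between genes.

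Genes were chosen by the 3 limits. Named genes were the 15 of highest mean, the 4 of highest mean in each functional group of at least 2 genes, the 5 highest and 5 lowest ratios and those at the limits. AT3G45030, RPS5A, AT5G16130, AT1G58983, AT1G07590, MLP329, AGP9, AGP31, TGG2, PCK1, RCI2A, CP29, RBCS3B, PIP1B, PIP3, AT2G33800 and the ribosomal protein genes outside the limits were added after their values were seen. Genes, functional groups and motifs were chosen with earlier results of these data known, and some group wording was added after product names were seen. Positions, exons and sequences came from RefSeq (TAIR10.1). Standard errors and the share of calls came from limma 3.58.1 in R 4.3.3, fitted to log2(FPKM + 1) with a trended variance, Benjamini-Hochberg adjustment over 1984 genes and a threshold of 0.01. The fit and the motif search were tested on simulated data. Python 3.11.15 was used for the rest. Replicate numbers come from the sample titles. Depth could not be given, so no counting interval was computed.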

Additional observations from a re-analysis of the deposited data

How the results depend on the processing

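The rule found 184 genes with a minimum mean of 100 FPKM and 45 with a minimum of 400 FPKM. It found 161 with median-ratio scaling, which raised every ratio and held all 112, and 109 to 118 when each library was left out in turn. The median ratio of 1.13 became 1.29 with median-ratio scaling and 1.16 with equal sums over the listed genes, and was 1.12 to 1.13 without each library in turn. The ratio of summed FPKM became 1.28 with median-ratio scaling, 1.15 without the 5 genes of highest mean and 1.15 with equal sums, and was 1.11 to 1.13 without each library in turn. Equal sums and the removal of MT1A, which gave 1.13, were chosen after seeing the data for this value. The median standard error of the 112 genes was 0.03 with limma's variance trend and 0.04 without it (0.0273 and 0.0394).

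limma called 1963 of 1984 listed genes, 800 without Col-0 replicate 1, 815 without Col-0 replicate 2, 812 without ndx1-4 replicate 1 and 773 without ndx1-4 replicate 2. There the remaining library of that genotype was taken to have the spread of the other pair. Median-ratio scaling gave 1481 calls, 869 higher and 612 lower, against 853 and 1110 with FPKM as deposited. The labels number the replicates alike in both genotypes, but deviations of same-numbered libraries correlated at only 0.02 over the listed genes, so the numbers were not used to pair libraries. With a replicate block limma called 1958, and the median ratio was 1.13 within each replicate number. Precision rests on 2 libraries a genotype, and depth is unknown.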
